A study of Mus musculus with 4 samples.

Results

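The genes of AMH and BMP receptor signalling were followed in granulosa cells (GCs) of the mouse, somatic cells that enclose and nurse the oocyte. The set was fixed by name and held 10 genes of the 55385 in the count table: the ligand gene Amh, the type 2 receptor genes Amhr2 and Bmpr2, the type 1 receptor genes Bmpr1a, Bmpr1b and Acvr1, the receptor SMAD genes Smad1, Smad5 and Smad9, and the target gene Id1. GCs came from the ovaries of Kunming mice, which were 12 to 14 days old by the study's methods. Preantral follicles were grown in vitro for 6 days, one by one in medium with FSH. In the NT4 group the medium held neurotrophin-4 (NT-4, a neurotrophic growth factor), and in the Control group it did not. Bulk RNA-seq was done on 2 libraries per group, Control 1, Control 2, NT4 1 and NT4 2. By the study's account, the libraries of a group came from independent experiments, and follicle cultures of the groups were run in parallel. The labels say neither how many follicles or animals stand behind a library nor that equal numbers mark a shared experiment.

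AMH is a hormone of the TGF-beta family that GCs of growing follicles secrete, and it is known as a brake on follicle recruitment and on the response to FSH. It binds AMHR2, its own type 2 receptor, which acts with type 1 receptors that are shared with the BMPs. Those receptors phosphorylate SMAD1, SMAD5 and SMAD9, which enter the nucleus with SMAD4 and switch on genes such as Id1. The comparison asked whether the RNA of these genes differed between GCs grown with and without NT-4.

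Across the set, no gene passed the test of NT4 against Control, nor did any of the 19259 genes tested (0%). The groups overlapped in 8 of the 10 genes and did not in 2, against 26.0% of all genes tested in which they did not. Amh, at a mean of 225 CPM (counts scaled to the TMM-adjusted library total) in the Control group and 241 CPM in the NT4 group, spread 4.27-fold over the 4 libraries, and its highest and lowest libraries were both NT4 libraries. Smad5 was at 117 to 120 CPM in the Control group and 108 CPM in NT4 1, but at 48.7 CPM in NT4 2. The type 1 and type 2 receptor genes and Smad1 kept to within 1.12-fold to 1.30-fold over all 4 libraries.

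The promoters of Amhr2 and Smad5 are shown because Amhr2 is the receptor gene that belongs to AMH alone and Smad5 is the SMAD gene with the widest spread. RefSeq promoter windows (GRCm38.p6, 250 bases before to 50 bases after the start site) were at hand for 8 of the 10 genes, in 12 windows, and for neither Amh nor Id1. Capitals mark AAGGTCA, the site of SF-1 (the product of Nr5a1), in Amhr2, and GGCGCC, a GC-rich site of BMP SMADs, in Smad5. Both windows read 5′ to 3′ on the plus strand, at chr15:102445117-102445416 for Amhr2 and at chr13:56702760-56703059 for Smad5.
Amhr2: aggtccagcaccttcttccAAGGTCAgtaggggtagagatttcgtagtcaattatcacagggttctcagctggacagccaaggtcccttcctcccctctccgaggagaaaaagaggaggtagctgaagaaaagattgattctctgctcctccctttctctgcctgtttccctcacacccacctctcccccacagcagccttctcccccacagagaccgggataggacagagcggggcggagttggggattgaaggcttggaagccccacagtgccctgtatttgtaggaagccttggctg
Smad5: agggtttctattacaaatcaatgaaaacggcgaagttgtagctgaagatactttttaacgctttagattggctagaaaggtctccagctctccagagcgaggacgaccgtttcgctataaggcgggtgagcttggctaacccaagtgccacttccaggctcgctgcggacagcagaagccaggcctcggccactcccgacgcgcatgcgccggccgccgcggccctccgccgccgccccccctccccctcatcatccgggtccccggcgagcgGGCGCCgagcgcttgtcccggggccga

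Both strands of each window were searched for AAGGTCA, for GGCGCC and for the SMAD palindrome GTCTAGAC, and none of these overlaps another. In Amhr2, AAGGTCA starts at base -231 from the start site, and no other gene of the 8 held it. This site was in 4.72% of all 32851 promoter windows. In the Smad5 window shown, GGCGCC starts at base +24, counting the start site as +1, and the same 6 bases lie in a second, overlapping Smad5 window. Bmpr2, Bmpr1a and Smad9 also held GGCGCC, so it was in 4 of the 8 genes and in 5 of their 12 windows, against 11.9% of all windows. The palindrome was in 0.213% of all windows and in none of these. A match describes the letters only, and no binding was measured.

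The 4 libraries held 49520092 to 78704020 counts, an estimated 12380023 to 19676005 read pairs. Counts of the 10 genes ran from 917 to 71170 per library, or an estimated 229 to 17792 read pairs, so counting error was small beside the spread of Amh and of Smad5. For the genes of few counts, such as Smad1 and Acvr1, counting error was not separated from the spread between libraries. All 11 granulosa markers were detected in every library, with a summed level of 11227 to 16409.9 CPM. The 11 oocyte markers summed to 106 and 73.5 CPM in the Control group and to 87.6 and 88.3 CPM in the NT4 group. The 9 theca and stroma markers summed to 1080 and 1113 CPM in the Control group and to 1555 and 1320 CPM in the NT4 group, higher in both NT4 libraries. All 9 had a log2 fold change above 0, from 0.22 in Ptch1 to 0.58 in Cyp17a1, with an edgeR adjusted p of 0.9999. The groups overlapped in Insl3, Ptch1 and Gli1 and did not in the others, against 26.0% of all genes tested in which they did not. Endothelial markers (6 genes, mostly Cdh5) summed to 19.3 to 28.3 CPM, and macrophage markers (5 genes) to 0.976 to 1.91 CPM. Surface epithelium markers (6 genes, mostly Lhx9) summed to 2.87 to 3.66 CPM, with Krt19 and Upk1b at 0 in every library. Krt7, Upk3b and Msln were at 0.298 CPM or less in each library. The part of such cells in the results on the 10 genes was not tested. In bulk RNA, fewer cells of a type and less RNA per cell cannot be told apart.

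**Figure D1:**
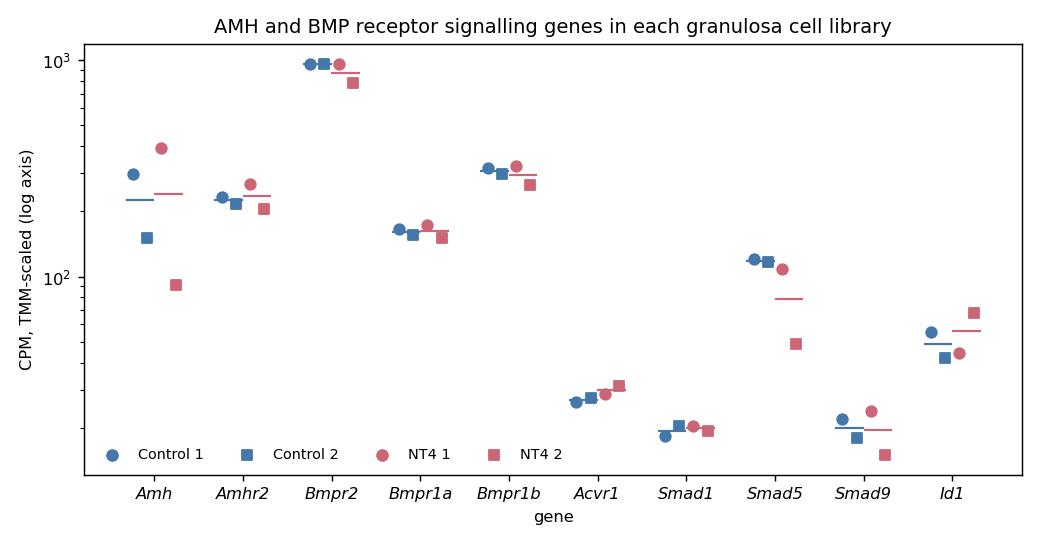
TMM-scaled CPM on a log axis for each of the 10 genes, with 1 point per library and a short line at each group mean (n = 2). The points of a gene lie close together for the receptor genes and Smad1, while Amh spreads from 91.5 to 391 CPM and the NT4 2 point of Smad5 lies apart at 48.7 CPM.

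Levels are given as CPM, counts scaled by the TMM-adjusted library total, which compare libraries for 1 gene. Amh (ENSMUSG00000035262) lies on the plus strand of chr10:80805243-80807648 in GRCm38, with 5 exons. Its level was 299 CPM in Control 1 and 151 CPM in Control 2, against 391 CPM in NT4 1 and 91.5 CPM in NT4 2. The groups overlapped, since the Control libraries lay between the NT4 libraries. The group means were 225 ± 105 CPM (SD, n = 2) in the Control group and 241 ± 212 CPM (SD, n = 2) in the NT4 group. The fitted log2 fold change of NT4 over Control was 0.10 with a standard error (SE) of 0.69, and its 95% interval ran from -1.65 to 1.84. A difference from 0.319-fold to 3.59-fold was thus inside the interval, the widest of the 10. Without NT4 1, Amh was lower in NT4 2 than in the Control libraries, with a log2 fold change of -1.31. With NT4 2 as the only NT4 library, that fit had no measure of the spread within the NT4 group. Without NT4 2, the log2 fold change was 0.79 in the other direction.

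Of the 10057 genes at a mean of at least 10 CPM, 99.2% had a smaller range over the 4 libraries than Amh, on the log2 scale. The gap from NT4 2 to the next library was 0.73 in log2, and 0.626% of these genes had NT4 2 lowest by at least that much. Amh was thus among the most variable expressed genes between libraries, and its variation ran within both groups.

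In the complex with ligand, the type 2 receptors phosphorylate the type 1 receptors. Amhr2 (ENSMUSG00000023047, chr15:102445367-102454633, plus strand) was at 234 and 217 CPM in the Control group and at 267 and 205 CPM in the NT4 group. Here too the NT4 libraries were the highest and the lowest, with a log2 fold change of 0.06 ± 0.16 (SE) and a 95% interval from -0.35 to 0.47. Bmpr2 (ENSMUSG00000067336, chr1:59763400-59879014, plus strand), the type 2 receptor of many BMPs and of GDF9 and BMP15 from the oocyte, was at 959 and 965 CPM in the Control group. It was at 961 CPM in NT4 1 and 782 CPM in NT4 2. NT4 1 lay between the Control libraries and NT4 2 below them, with a log2 fold change of -0.14 ± 0.13 (SE) and an interval from -0.48 to 0.19.

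Among the type 1 receptors, BMPR1A, BMPR1B and ACVR1 all serve BMPs, and they are the partners that AMHR2 can use. Bmpr1a (ENSMUSG00000021796, chr14:34410734-34503341, minus strand) was at 166 and 155 CPM in the Control group and at 174 and 150 CPM in the NT4 group. The difference came to 0.02 ± 0.13 (SE) in log2, and the interval ran from -0.31 to 0.34. The antisense gene Gm17110 covers 4.57% of the Bmpr1a exon bases, and since it is not stated whether counting used strand, reads there could belong to either gene. Bmpr1b (ENSMUSG00000052430, chr3:141837136-142169425, minus strand) was at 318 and 297 CPM in the Control group and at 325 and 264 CPM in the NT4 group. The log2 fold change of Bmpr1b was -0.06 ± 0.14 (SE), and the interval ran from -0.42 to 0.30. In both genes the NT4 libraries lay on either side of the Control libraries.

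Acvr1 (ENSMUSG00000026836, chr2:58388644-58567157, minus strand), the gene of ALK2, was at 26.2 and 27.5 CPM in the Control group and at 28.7 and 31.1 CPM in the NT4 group. Both NT4 libraries lay above both Control libraries, and the log2 fold change was 0.16 ± 0.14 (SE), with an interval from -0.21 to 0.52 and an unadjusted p of 0.326 in edgeR. Groups that do not overlap were found in 26.0% of the 19259 genes tested. In the set they were found in 2 of 10 genes, Acvr1 and Smad5.

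The SMAD genes showed the receptor SMAD with the largest difference beside the gene of the set that was steadiest in CPM. Smad5 (ENSMUSG00000021540, chr13:56703010-56742377, plus strand) was at 120 and 117 CPM in the Control group, 108 CPM in NT4 1 and 48.7 CPM in NT4 2. NT4 1 was close to the Control libraries, and NT4 2 was far below the other 3. The group means were 118 ± 2.23 CPM (SD, n = 2) and 78.6 ± 42.3 CPM (SD, n = 2), the log2 fold change was -0.59 ± 0.37 (SE), and the interval ran from -1.51 to 0.33 (edgeR unadjusted p = 0.164). Without NT4 2, the log2 fold change of Smad5 was -0.13. With NT4 2 alone against the Control libraries it was -1.29, from a fit with no measure of the spread within the NT4 group. The step from NT4 2 to the next library was 1.16 in log2, and 0.259% of genes at a mean of at least 10 CPM had NT4 2 lowest by at least as much. The noncoding gene Gm27301 shares 1.35% of the Smad5 exon bases on the same strand.

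Smad1 (ENSMUSG00000031681, chr8:79338395-79399518, minus strand) was at 18.3 and 20.4 CPM in the Control group and at 20.4 and 19.3 CPM in the NT4 group, a log2 fold change of 0.04 ± 0.16 (SE). In CPM, no other gene of the set spread so little, 1.12-fold over the 4 libraries. Smad9 (ENSMUSG00000027796, chr3:54755582-54801257, plus strand), which encodes the receptor SMAD also called SMAD8, was at 22.0 and 17.9 CPM in the Control group and at 24.0 and 14.9 CPM in the NT4 group. Its NT4 libraries lay outside the Control libraries on either side, and the log2 fold change was -0.03 ± 0.27 (SE), with an interval from -0.72 to 0.65.

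Id1 (ENSMUSG00000042745, chr2:152736251-152737410, plus strand) encodes an inhibitor of basic helix-loop-helix transcription factors and is a direct target of the BMP SMADs. It was at 55.3 and 42.0 CPM in the Control group and at 44.5 and 67.5 CPM in the NT4 group. NT4 2 was the highest library and NT4 1 lay between the Control libraries. The log2 fold change of Id1 was 0.20 ± 0.25 (SE), with an interval from -0.43 to 0.84 (edgeR unadjusted p = 0.452). In NT4 2, where Amh and Smad5 were lowest, Id1 was thus at its highest.

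**Figure D2:**
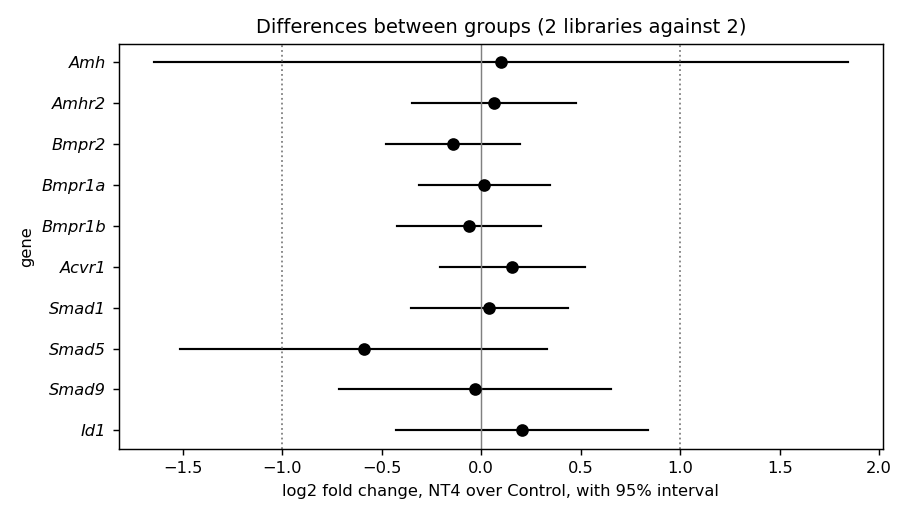
Fitted log2 fold change of NT4 over Control for each of the 10 genes, with the 95% interval of the quasi-likelihood fit as a line, and dotted lines at 2-fold in either direction. Every interval spans 0, and only those of Amh and Smad5 reach past a dotted line.

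In the quasi-likelihood test of edgeR over 19259 genes, 0 of the 10 genes passed an adjusted p of 0.05, and each had an adjusted p of 0.9999. Over all genes tested, 0% passed, with 0.13 as the smallest adjusted p. Before adjustment, 0 of the 10 genes had p under 0.05 against 1.99% of all genes. The study's criterion asks for a change of over 2-fold, up or down, together with p under 0.05 before adjustment. It was met by 0 of the 10 genes against 1.08% of all genes tested. DESeq2, the exact test of edgeR and limma voom also called 0 of the 10 genes at an adjusted p under 0.05 and 0 at an unadjusted p under 0.05. Over all genes, DESeq2 called 62 of 27099 after adjustment and 525 before it, the exact test 59 and 444 of 19259, and voom 0 and 375 of 19259. The log2 fold change was above 0 in 6 of the 10 genes and below 0 in 4, with a median of 0.03. Over all genes the median was 0.0045 and the middle range by quartiles ran from -0.14 to 0.16. The 95% intervals of 8 of the 10 genes excluded a 2-fold difference in either direction, which held for 58.4% of all genes. Each interval still held smaller differences, so the absence of a call does not show equal levels. With 2 libraries against 2, an exact permutation of the labels could not give a two-sided p below 0.333.

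To compare genes with each other, levels were divided by exon length and scaled to a common total (TPM). Per length, Amh and Amhr2 had the highest means of the set, at 371 TPM (from 135 to 625 over the 4 libraries) and 303 TPM (from 252 to 355). In NT4 2, Id1 at 144 TPM was above Amh at 135 TPM. Amh was above 98.1% of tested genes in mean TPM and Amhr2 above 97.7%. They were followed by Bmpr2 at 134 TPM, Bmpr1b at 133 TPM and Id1 at 118 TPM. Next came Bmpr1a at 66.8 TPM, Smad5 at 35.2 TPM, Acvr1 at 15.4 TPM, Smad9 at 9.68 TPM and Smad1 at 8.21 TPM. Smad1 was above 48.9% of tested genes.

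The range of Amh over libraries overlapped those of Amhr2, Bmpr2, Bmpr1b and Id1, the ranges of Bmpr2, Bmpr1b and Id1 overlapped each other, and so did those of Smad9 and Smad1. Amhr2 was above Bmpr2, Bmpr1b and Id1 in each library, and Amh was above Bmpr2 and Bmpr1b in each. The order of Amh against Amhr2 and Id1 is not settled. Nor is the order among Bmpr2, Bmpr1b and Id1, or that of Smad9 and Smad1. With the longest transcript as the length, Smad1 was at 11.0 TPM and Smad9 at 7.84 TPM, the reverse order. Ligand over receptor, the ratio of Amh to Amhr2 TPM was 1.53 and 0.837 in Control 1 and 2, and 1.76 and 0.537 in NT4 1 and 2. It was above 1 in 1 library of each group and below 1 in the other.

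**Figure D3:**
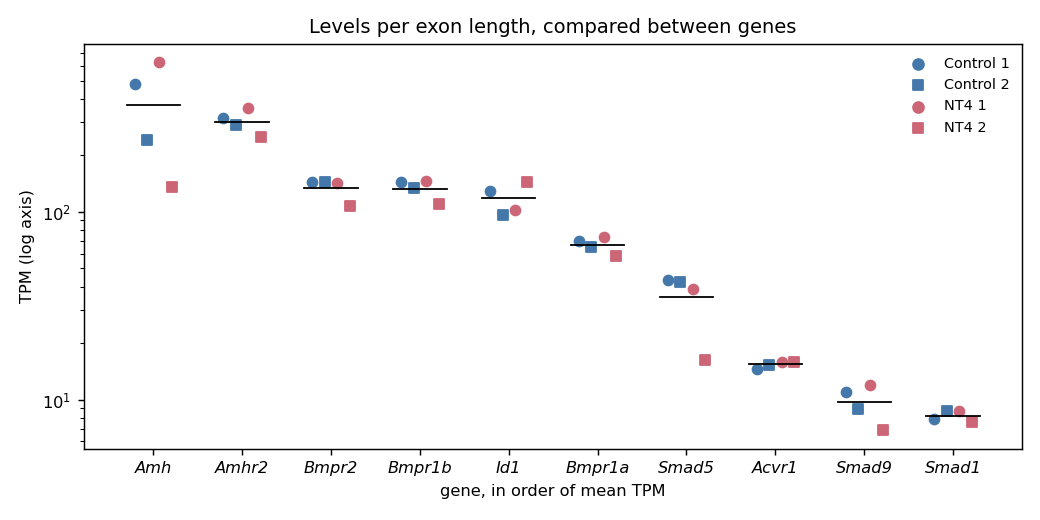
TPM on a log axis for the 10 genes in falling order of their mean over 4 libraries (black line), with 1 point per library. Amh and Amhr2 have the highest means, 371 and 303 TPM, Amh reaches down to the range of Bmpr2, Bmpr1b and Id1, and Smad9 and Smad1 are lowest at 9.68 and 8.21 TPM.

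Among the 3 type 1 receptor genes, Bmpr1b made up most of the TPM, 62.6% ± 0.384 (SD, n = 2) in the Control group and 60.8% ± 1.80 (SD, n = 2) in the NT4 group. Bmpr1a made up 30.6% ± 0.131 (SD, n = 2) in the Control group and 31.5% ± 0.462 (SD, n = 2) in the NT4 group. The shares of Bmpr1b in both NT4 libraries were below, and those of Bmpr1a above, the shares in both Control libraries. For Bmpr1a, the NT4 mean minus the Control mean was 0.83 points, 1.16 without NT4 1 and 0.50 without NT4 2. The share of Acvr1 was 6.39% and 7.12% in the Control group and 6.76% and 8.65% in the NT4 group. Between Amhr2 and Bmpr2, Amhr2 held 68.6% and 66.8% of the TPM in the Control group and 71.3% and 70.1% in the NT4 group, higher in both NT4 libraries. These genes differ in exon length (2005 and 17983 bases). With the length trend between libraries removed (chosen after seeing the data), the log2 fold change was 0.021 for Amhr2 and -0.076 for Bmpr2. Without that step the values were 0.06 and -0.14. The part of exon length in these shares was not tested.

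Within the receptor SMADs the makeup was less even between libraries. Smad5 held 69.8% and 70.5% of the TPM of the 3 genes in the Control group, 65.4% in NT4 1 and 52.8% in NT4 2. Smad1 held 12.6%, 14.6% and 14.6% in Control 1, Control 2 and NT4 1 and 24.8% in NT4 2, and Smad9 held 17.6% and 14.9% in the Control group and 20.0% and 22.4% in the NT4 group. Smad5 stayed the main receptor SMAD transcript in each library, and its share in both NT4 libraries was below that in both Control libraries. The shares of Smad1 and Smad9 were above, though for Smad1 the shares in Control 2 and NT4 1 were equal to the digits shown. For Smad5, the NT4 mean minus the Control mean was -11.0 points, -17.3 without NT4 1 and -4.73 without NT4 2. Shares of a set add up to a fixed total, so they do not move independently, and how often shares of other genes separate the groups was not tested.

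The libraries fell in the order NT4 1, Control 1, Control 2, NT4 2 from the highest to the lowest Amh level, an order that was noticed after the values were seen. Of the other 9 genes, 4 (Amhr2, Bmpr1a, Bmpr1b and Smad9) had the same order, against 9.70% of the genes at a mean of at least 10 CPM. The reverse order held for 8 of 11 granulosa markers, against 12.1% of those genes. These were Foxl2, Fshr, Inha, Inhba, Cyp19a1, Gja1, Hsd17b1 and Fst, which include the FSH receptor gene and the aromatase gene Cyp19a1. Gja1 ran only from 1817 to 1993 CPM. The other granulosa markers, Nr5a2, Kitl and Esr2, had neither the reverse order nor that of Amh. In Control 1, Control 2, NT4 1 and NT4 2, Nr5a2 was at 589, 666, 574 and 644 CPM. Kitl was at 136, 114, 144 and 125 CPM and Esr2 at 282, 303, 288 and 267 CPM. Fshr was at 113, 147, 108 and 162 CPM and Cyp19a1 at 39.7, 65.5, 36.6 and 87.0 CPM, with the 2 Control libraries before NT4 1 and NT4 2. The 4 genes of the set kept the order of Amh under all 5 scalings tried, but with library totals or TPM the reverse order held for 6 of the 11 markers. All genes of a library share its depth and RNA, so such orders over 4 libraries describe the libraries and carry no test.

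**Figure D4:**
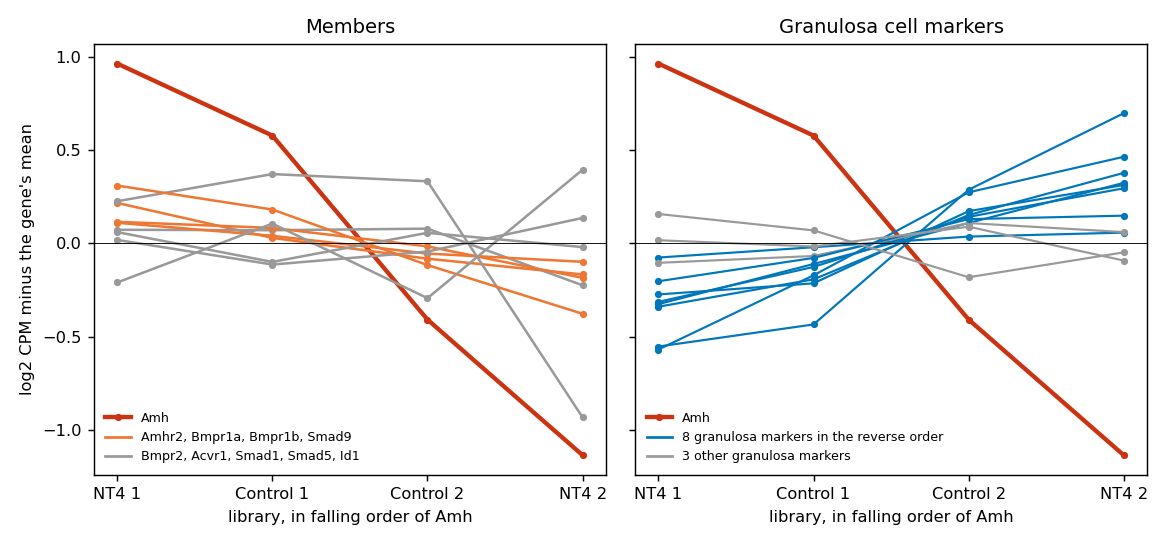
Log2 CPM minus the gene's own mean over 4 libraries, with libraries along the axis in falling order of Amh. Amh, Amhr2, Bmpr1a, Bmpr1b and Smad9 fall from NT4 1 to NT4 2 (left), while 8 of 11 granulosa markers rise along the same axis (right).

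NT4 2 was the lowest library for 7 of the 10 genes, against 29.4% of the genes at a mean of at least 10 CPM. It was the highest for Id1 and Acvr1, against 34.8% of those genes. The level in NT4 2 relative to the other 3 libraries moved with exon length. The median log2 difference was 0.17 in the genes of the shortest exon length and -0.12 in those of the longest, when genes were split into 4 equal bins of length. Of the 10 genes, Id1 (1160 bases) was at 0.53 on this measure and Smad5 (7420 bases) at -1.24, while Amh, with only 1670 bases, was at -1.51. Bmpr2 (17983 bases) was at -0.30, Smad9 (5368 bases) at -0.50 and Smad1 (6262 bases) at -0.026. The other 4 genes, Amhr2, Bmpr1a, Bmpr1b and Acvr1, lay from -0.24 to 0.18. The level in NT4 2 also moved with GC content, with a median log2 difference of -0.071 in the bin of the lowest GC and 0.11 in that of the highest. With the length trend removed from each library, an alternative chosen after seeing the data, the log2 fold changes of Amh and Smad5 were 0.088 and -0.59. The part of RNA quality in these values was not tested.

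By the distance between their 4 deviations from the mean, the 3 of 10056 genes most like Amh over the 4 libraries were Rc3h1 (0.27 in log2), Skil (0.33) and Ntn4 (0.34). Skil, which encodes the SMAD corepressor SnoN, was at 116 and 77.4 CPM in the Control group and at 154 and 36.6 CPM in the NT4 group. Those most like Id1 were Hk1 (0.089), Rps20 (0.097) and Etfb (0.12).

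The rest of the pathway was read from a list of 54 genes, of which 50 were tested. In edgeR, 0 of the 50 passed an adjusted p of 0.05, 0 an unadjusted p of 0.05 and 0 the study's criterion. Fold changes were above 0 in 29 genes and below 0 in 21, with a median log2 value of 0.02. Groups did not overlap in 4 of the 50 genes (Bmp8a, Acvrl1, Acvr2b and Msx1), against 26.0% of all genes tested. The range ran from -0.87 in Bmp8a to 1.35 in Msx1, and both were low, at 0.305 to 0.759 CPM for Bmp8a and 0.120 to 0.786 CPM for Msx1. A gene with no reads can still be at a level of 3 read pairs, from 0.152 to 0.242 CPM by library, and Msx1 in Control 1 was below that floor. Bmp8b, Gdf5, Sostdc1 and Msx2 were not tested, and Sostdc1 and Msx2 had 0 counts in all 4 libraries.

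Of the ligands, 5 were higher and 5 lower, with a median log2 fold change of 0.01. Bmp3, the ligand of highest CPM, was at 155 and 228 CPM in the Control group and at 174 and 177 CPM in the NT4 group. By TPM, Bmp2 had a higher mean over the libraries, 98.2 against 65.2 for Bmp3. Bmp15 and Gdf9 are ligand genes of the oocyte. Bmp15 was at 11.8 and 10.03 CPM in the Control group and at 10.7 and 9.63 CPM in the NT4 group, and Gdf9 was at 30.4 and 23.0 CPM and at 25.4 and 30.8 CPM. Secreted antagonists of BMPs were higher in 5 genes and lower in 4, with a median log2 fold change of 0.04.

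The other receptors, co-receptors and Smad4 were higher in 3 genes and lower in 5. Smad4, the partner of all receptor SMADs, was at 117 and 123 CPM in the Control group and at 117 and 112 CPM in the NT4 group. Of the inhibitors inside the cell or at the receptor, 5 were higher and 3 lower. Smad6, which blocks BMP SMADs, was at 28.7 and 22.9 CPM in the Control group and at 30.3 and 24.8 CPM in the NT4 group. Smad7, an inhibitor of both TGF-beta and BMP receptors, was at 52.3 and 62.7 CPM and at 47.6 and 54.0 CPM. The pseudoreceptor gene Bambi was at 23.7 and 17.9 CPM and at 24.5 and 18.9 CPM. Ppm1a, a SMAD phosphatase gene, was at 116 and 112 CPM and at 123 and 104 CPM. In each of these 4 genes the groups overlapped.

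Targets of BMP SMADs had a median log2 fold change of 0.26, with 5 of 6 above 0 and none past either threshold. Id2 was at 65.2 and 67.3 CPM in the Control group and at 63.6 and 98.0 CPM in the NT4 group, with a log2 fold change of 0.29. Id3 was at 239 and 260 CPM in the Control group and at 185 and 363 CPM in the NT4 group, with a log2 fold change of 0.14. Both were highest in NT4 2, as Id1 was, and lowest in NT4 1, so that their groups overlapped.

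Transcription factors known at the Amh promoter were higher in 6 genes and lower in 3, with a median log2 fold change of 0.01. Gata4 was at 335 and 386 CPM in the Control group and at 321 and 476 CPM in the NT4 group. Nr5a1, the gene of SF-1, was at 194 and 246 CPM and at 196 and 303 CPM, and Foxl2 at 188 and 218 CPM and at 162 and 253 CPM. All 3 were highest in NT4 2, the library with the lowest Amh, as were 34.8% of the genes at a mean of at least 10 CPM. Wt1 went the other way, at 22.5 and 10.3 CPM in the Control group and at 24.5 and 8.74 CPM in the NT4 group, in the same order as Amh. Of the 9 factors, Wt1, Nr0b1 and Zfpm2 had the order of Amh, and Foxl2 and Gata4 the reverse. Among the genes at a mean of at least 10 CPM, 9.70% had the order of Amh and 12.1% the reverse. Wt1, Nr0b1 and Zfpm2 were named after their values were seen.

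**Figure D5:**
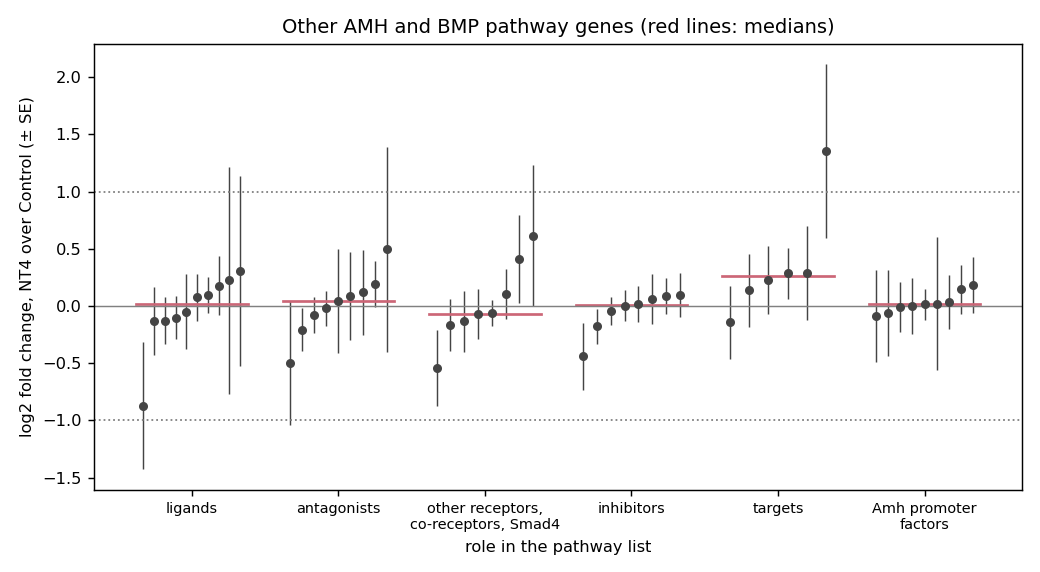
Log2 fold change of NT4 over Control with its SE for the 50 tested genes of the pathway list, by role, with a red line at each median. Points lie on both sides of 0 in every role, and Msx1, at 1.35, is the 1 gene past the dotted lines at 2-fold.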

How the data were processed

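Bulk RNA-seq of GCs gave 4 libraries, 2 per group by the GEO labels. By the study's methods, the authors trimmed reads with Cutadapt, mapped them with HISAT2 to Ensembl release 99 (GRCm38) and estimated expression with StringTie and ballgown. FastQC and edgeR are also named in the submitters' processing notes. What the authors deposited are expected counts per gene, whole and not normalized. The step from the StringTie output to these counts is not stated. About 4 counts were taken as 1 read pair. Of the counts from 1 to 12, 45.4% to 46.2% by library were 4, 8 or 12, so read pairs and floors are estimates. All columns were used, and the single-library files equalled the table.

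Genes were matched by identifier to GENCODE M21 (GRCm38), which annotated 55144 of 55385. Tests used edgeR 4.0.16 in R 4.3.3 (quasi-likelihood, TMM, default filter, group alone, two-sided, Benjamini-Hochberg over 19259 genes). Intervals are 95% Wald intervals of that fit. Log2 CPM used a prior count of 2, and TPM used merged exon length. PCR duplicates are not independent molecules, so floors cover counting error only.

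Named genes were the 10 genes of the set. From the pathway list, they were any gene past a threshold, the gene of highest CPM in each role and 11 fixed by name. A gene that this rule names is not reported here. Others are said to be chosen after their values were seen or were named by overlap, by likeness, as markers, by extreme value or by groups that do not overlap. The genes of the set and the lists were chosen with earlier results of these data known. Alternatives were other scalings (DESeq2 1.42.0 size factors, upper quartile, library totals), filters, tests (DESeq2, edgeR exact, limma 3.58.1 voom), the replicate number as a block, counts divided by 4, another length and each library left out.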

Additional observations from a re-analysis of the deposited data

How the results depend on the processing

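On all 4 libraries, 242 of 253 log2 fold changes of the 23 named genes kept their direction and side of the threshold. The other 11 changed sign. Amh was at -0.17 with limma voom and with the replicate block, Bmpr1a at -0.0036 with library totals, and Foxl2 at -0.0094 with the exon length trend removed (chosen after seeing the data). Ppm1a was at -0.00049 with DESeq2 size factors, -0.00060 with upper-quartile factors, -0.016 with library totals, -0.0011 with a filter at 1 CPM in 2 libraries, -0.0027 with voom, -0.0017 with the replicate block and -0.00012 with counts divided by 4. The cause was not tested. No alternative called a gene of the set at an adjusted p under 0.05, while over all genes DESeq2 called 62, the edgeR exact test 59 and edgeR with no filter on low counts 10.

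With a library left out, 65 of 92 values kept their direction and 27 changed sign. In log2 fold change, Bmpr2 (-0.31 to -0.0030), Acvr1 (0.095 to 0.21) and Smad5 (-1.29 to -0.13) kept their direction in each case. So did Smad4 (-0.11 to -0.019) and Smad7 (-0.31 to -0.036). The count of the 10 genes at the study's criterion ran from 0 to 2, with Amh and Smad5 without NT4 1 (1.68% of all genes there), and their median log2 fold change from -0.19 (without NT4 1) to 0.088. On the pathway list that count ran from 0 to 1, Msx1 at 2.54 without Control 2 (2.53% of all genes there) and Acvr2b at -1.07 without NT4 2 (1.93%). Over all genes, 12 were called without Control 1, 37 without Control 2 and 0 without either NT4 library. Where a group kept 1 library, the fit took it to vary like the other group. For Msx1 without Control 2, that library was Control 1, at 0.120 CPM. This is below its floor of 0.242 CPM, so 2.54 is not an exact value. The log2 fold changes that changed sign ran over these ranges: Amh -1.31 to 0.79, Amhr2 -0.15 to 0.24, Bmpr1a -0.099 to 0.12, Bmpr1b -0.22 to 0.080, Smad1 -0.041 to 0.12, Smad9 -0.42 to 0.27, Id1 -0.13 to 0.47, Bmp3 -0.38 to 0.18, Bmp15 -0.21 to 0.013, Gdf9 -0.11 to 0.29, Smad6 -0.065 to 0.26, Bambi -0.14 to 0.27, Ppm1a -0.13 to 0.12, Id2 -0.060 to 0.56, Id3 -0.43 to 0.54, Foxl2 -0.33 to 0.31, Gata4 -0.17 to 0.39, Nr5a1 -0.17 to 0.45.

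Libraries of the same number had deviations from the group means correlated at 0.14 (Pearson) and 0.26 (Spearman) across 19259 genes, and at 0.038 and 0.45 across the 10057 at a mean of at least 10 CPM. Genes are not independent replicates, and no label says that the numbers pair libraries. With the replicate block, the SE of Amh was 0.28 against 0.69 without it, 0 genes of the set were called, and 580 of all genes against 383 had an unadjusted p under 0.05.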

Other observations

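Some other genes of the pathway list, chosen after their values were seen, had a wide gap between the NT4 libraries, as Amh did. Nog, the gene of the BMP antagonist noggin, was at 4.34 and 1.29 CPM in the Control group and at 6.64 and 1.28 CPM in the NT4 group. Bmp2, a BMP ligand gene, was at 136 and 133 CPM in the Control group and at 174 and 85.4 CPM in the NT4 group. In both genes NT4 1 was the highest library. Both had the library order of Amh, but Bmp2 differed little between the Control libraries, and Nog was nearly equal in Control 2 and NT4 2. Grem1, the gene of the BMP antagonist gremlin 1, had the reverse order of Amh, at 260 and 330 CPM in the Control group and at 193 and 433 CPM in the NT4 group.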
